A study of Mus musculus with 2 samples.

Results

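The cells described here are macrophages of the mouse aortic wall that carry message for Lyve1, a hyaluronan receptor, or Folr2, a folate receptor. They were chosen from 2 single-cell RNA libraries by the deposited values of 8 genes. A cell was taken when its values of C1qa, C1qb and C1qc summed to at least 10, those of Lyve1 and Folr2 summed to at least 2, Myh11 was below 20, and Pecam1 and Cdh5 summed to less than 2. Myh11 marks smooth muscle cells, and Pecam1 and Cdh5 mark endothelial cells. The rule took 209 of 7358 cells, 126 of 4397 with GLPG0187 and 83 of 2961 with vehicle. They are called Lyve1/Folr2-positive macrophages here. They were set against the 232 other C1q-positive cells that met the same Myh11, Pecam1 and Cdh5 limits but not the Lyve1 and Folr2 minimum, 154 with GLPG0187 and 78 with vehicle. Another 26 C1q-positive cells lay beyond those limits (18 and 8).

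Both libraries came from the thoracic aorta, dissected as the root with the ascending part, of mice heterozygous for the Marfan syndrome allele Fbn1C1041G. The controls therefore carried the mutation too, and no library of wild-type mice was analysed here. From 6 to 16 weeks of age the mice received a daily dose of GLPG0187, an integrin alpha-v inhibitor per the series' design text, or vehicle, and all were 16 weeks old at collection. Each library was a pool of aortas from males and females, and the labels do not say how many animals a pool held. Each treatment is thus 1 library, so no test was possible, and treatment cannot be told apart from library preparation or from the particular animals pooled. The design asks what alpha-v inhibition does to the cells of the aneurysm-prone root. Shares of cells can also be set by enzymatic digestion and by the sort that removed debris.

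The deposited values of a cell summed to between 12135 and 16719 with GLPG0187 and between 12078 and 16187 with vehicle. Totals this even belong to a depth-corrected scale, so the sequencing depth of a cell is unknown. Lyve1/Folr2-positive macrophages had a median of 3145.5 genes above 0 with GLPG0187 and 3092 with vehicle. The other C1q-positive cells had 3265 and 2995.5. The libraries shared 5 cell barcodes, 0 of them among the Lyve1/Folr2-positive macrophages.

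Tissue macrophages of the artery wall are seeded before birth or soon after, renew themselves in place, and lie mainly in the outer coat along nerves and vessels. Lyve1, Folr2, Timd4 and the scavenger receptors Mrc1 and Cd163 mark this resident kind, which is known for taking up debris and limiting collagen build-up. Monocytes that enter the wall bring Ly6c2 and Ccr2 with them and can later take on a macrophage phenotype. MHC class II molecules show peptides to CD4 T cells, and their genes need the coactivator CIITA, itself induced by interferon gamma. Interferon gamma also induces the immunity-related GTPases and guanylate-binding proteins, which attack the vacuoles of intracellular microbes.

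The marker genes of a resident-type macrophage were present, though Mrc1 and Pf4 were also above 0 in most other C1q-positive cells. Lyve1, encoded on chromosome 7 (110850607 to 110863239, minus strand), had a mean deposited value per cell of 13.8 with GLPG0187 and 15.6 with vehicle. Folr2, on the same chromosome (101839988 to 101857194, minus strand), had means of 12.2 and 12. Both genes chose the cells, so these levels are a description. Mrc1, the mannose receptor, was above 0 in 99.2% and 98.8% of the Lyve1/Folr2-positive macrophages, and Pf4, the chemokine platelet factor 4, in 99.2% and 100%. In the other C1q-positive cells these shares were 87.0% and 70.5% for Mrc1 and 76.0% and 80.8% for Pf4. Mean Mrc1 was 28.4 and 28.1 against 10.1 and 7.24 in those other cells, and mean Pf4 57.2 and 62.6 against 12.2 and 12.9. C1qa, a chain of complement C1q that the rule also used, averaged 85.9 and 83.0 in the Lyve1/Folr2-positive macrophages. Timd4, a receptor for phosphatidylserine on dying cells, was above 0 in 53.2% (44.1 to 62.1) and 47.0% (35.9 to 58.3). Bracketed ranges after a share are exact Clopper-Pearson 95% intervals, which cover counting error only. Cd163, the receptor for haptoglobin-bound haemoglobin, was above 0 in 58.7% and 55.4%. In the other C1q-positive cells Timd4 was above 0 in 2.60% and 3.85%, and Cd163 in 7.14% and 8.97%.

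Free RNA in droplets can put a gene into cells that do not express it, so the same shares were taken in Myh11-high cells (Myh11 of at least 20 and a C1q sum below 10), 1504 and 607 cells with a median of 4078 and 4205 genes. Lyve1 was above 0 in 2.59% and 1.98% of them, Folr2 in 0.665% and 0.165%, and Pf4 in 4.52% and 4.78%. Timd4 was above 0 in 0.332% of them with GLPG0187 and in 0 of 607 with vehicle, which allows a share of up to 0.494%. The shares of Pf4 and Timd4, which the rule did not use, thus lay far above that level in both libraries.

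Markers of endothelial and several other cell types were near 0, but those of smooth muscle cells and fibroblasts were not. The summed value of endothelial markers had a median of 0 and reached at most 3 and 2 in a Lyve1/Folr2-positive macrophage. Lymphatic endothelial cells also make Lyve1; the sum of their 6 other markers had a median of 0 and at most 6 and 2, with 3 and 5 of the 6 at 0 in every cell. T and NK, mast, red cell and mesothelial marker sums had medians of 0 in both libraries. Smooth muscle marker sums had medians of 13 and 9, and fibroblast marker sums of 7 and 10, with 10 cells far above the rest that are taken up with the treatment comparison. Ly6c2, a marker of inflammatory monocytes, was listed at 0 in all 126 and all 83 cells, which allows shares of up to 2.38% and 3.61%.

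The lowest C1q sum among the Lyve1/Folr2-positive macrophages was 84 and 86, far from the limit of 10, while among the other C1q-positive cells it was 10 and 12. The Lyve1 and Folr2 limit did pass through a continuous range. Just inside it, 10 and 2 cells had a sum of 2 to 3, with mean Pf4 of 19.6 and 44.5. Just outside it, 10 and 4 cells had a sum of 1, with mean Pf4 of 26.3 and 42.3. The 144 and 74 cells with a sum of 0 had mean Pf4 of 11.2 and 11.3, and the 84 and 67 with a sum of at least 10 had 65.4 and 67.0. Cells on both sides of the limit thus had Pf4 between the ends of the range, but they were few.

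The Lyve1/Folr2-positive macrophages formed nearly the same part of both libraries. They were 2.87% (2.39 to 3.40) of all cells with GLPG0187 and 2.80% (2.24 to 3.46) with vehicle, a difference of 0.0625 percentage points (-0.75 to 0.841). Among all C1q-positive cells they were 42.3% (36.6 to 48.1) and 49.1% (41.4 to 56.9), a difference of -6.83 percentage points (-16.5 to 2.87). Cells with Xist but no Y-linked message, and cells with Y-linked message but no Xist, come from females and males of each pool and so from different animals. The macrophages made up 21 of 1149 and 24 of 951 Xist-only cells. They made up 80 of 2709 and 45 of 1668 Y-only cells. Both difference intervals, of all cells and of C1q-positive cells, included 0.

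Resident genes set the Lyve1/Folr2-positive macrophages apart from the other C1q-positive cells, with 21 of 21 measured genes of the resident macrophage list higher. Differences are log2 ratios of mean deposited values per cell with 0.1 added to each mean, taken inside each library over the 6122 genes with a mean of at least 0.2. A gene counts as higher or lower when it was at least 1.5-fold apart in the same direction in both libraries. Of the 6122 genes, 545 (8.9%) met this, 274 (4.48%) of them higher and 271 (4.43%) lower. The cells were divided by Lyve1 and Folr2, and genes that vary with these follow from the choice, so the counts and values of this comparison are a description. The median of the resident list was 2.54 on the log2 scale, beside -0.03 over all genes.

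F13a1, the A subunit of coagulation factor XIII, had means of 26.6 and 24.6 in the Lyve1/Folr2-positive macrophages and 1.68 and 1.41 in the other C1q-positive cells, in the order GLPG0187 and vehicle. Cd163 had means of 6.19 and 6.47 against 0.26 and 0.269, a log2 difference of 4.13 and 4.15. Fcna, the lectin ficolin A that triggers complement, had 2.12 and 1.95 against 0.0195 and 0.0128. Each of these genes was thus higher by a similar amount in either library. Timd4 had 1.68 and 1.30 against 0.0519 and 0.0385, and Cd209f and Cd209g, C-type lectins of the DC-SIGN family, were listed at 0 in all other C1q-positive cells. Only 10.3% and 12% of the Lyve1/Folr2-positive macrophages had Cd209f above 0, and 15.9% and 12% had Vsig4, a complement receptor. Those lectins and Vsig4 therefore mark a small fraction of the cells. Cbr2, a carbonyl reductase, averaged 14.3 and 14.5 against 1.38 and 1.26, but it was also above 0 in 92.4% and 90.6% of Myh11-high cells.

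**Figure D1:**
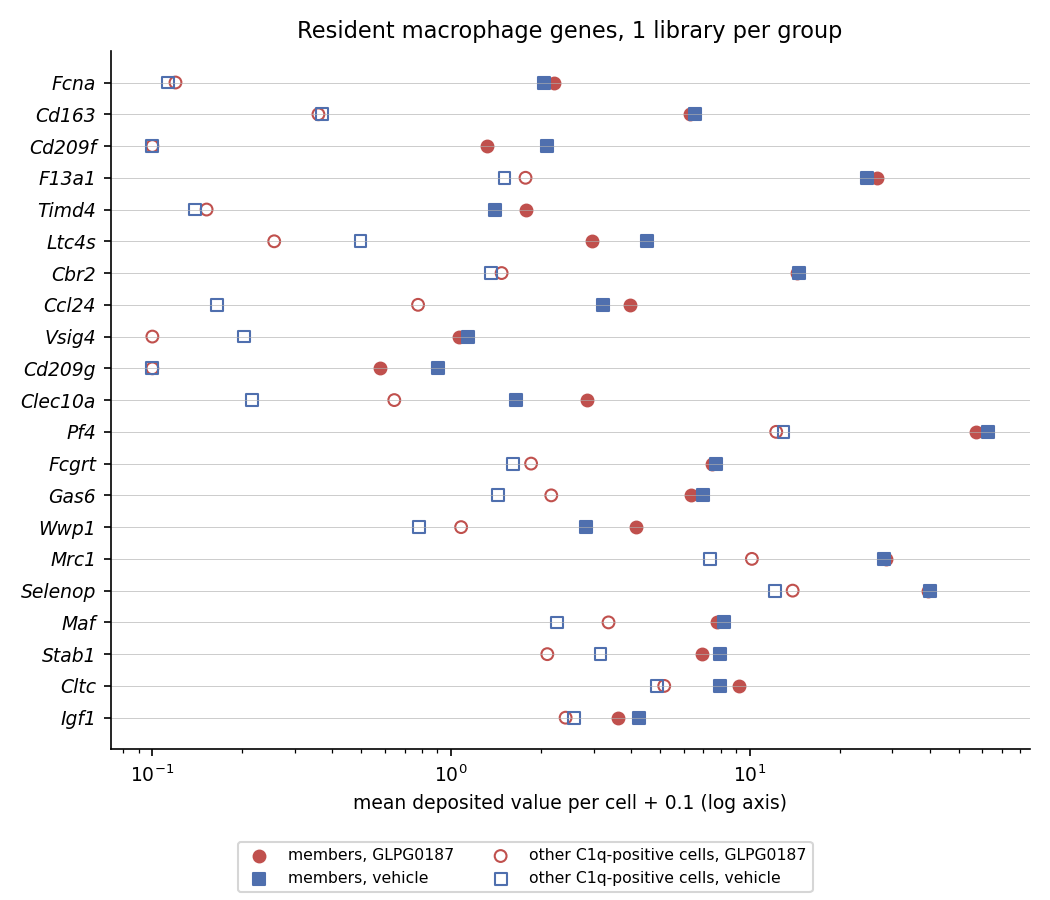
Mean deposited value per cell plus 0.1 (log axis) of the 21 measured genes of the resident macrophage list apart from Lyve1 and Folr2. Filled symbols are Lyve1/Folr2-positive macrophages ("members", 126 with GLPG0187 and 83 with vehicle), open symbols the other C1q-positive cells (154 and 78), circles GLPG0187 and squares vehicle. In every row both filled symbols lie to the right of both open ones, and for most genes the filled circle and square lie close together.

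Of 14 measured scavenger and endocytic genes, 9 were higher and 0 lower, with a list median of 1.45, and 6 of these 9 also belong to the resident list. Stab1, a scavenger receptor, had means of 6.79 and 7.88 against 2.00 and 3.06. Cd36, a receptor for oxidised lipoproteins, had 3.32 and 3.65 against 1.02 and 1.59, and Ap2a2, a subunit of the clathrin adaptor, 3.83 and 4.0 against 1.29 and 1.21. Gas6 and Pros1, the bridging proteins that tie dying cells to TAM receptors, were higher by 1.55 and 2.28 and by 1.03 and 1.76 on the log2 scale. Among the receptors for them, Axl was lower, with means of 0.595 and 1.11 against 1.90 and 1.81, while Mertk had 1.06 and 1.19 against 0.649 and 0.923. The apoptotic cell uptake list was therefore split, 4 higher and 3 lower of 14.

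Complement genes leaned the same way as the resident list, 5 higher and 0 lower of 10. C4b, a complement C4 gene, had means of 11.1 and 5.48 against 1.71 and 0.179. Cfp, properdin, which stabilises the alternative pathway, had 6.19 and 3.93 against 3.57 and 1.37. Among iron and haem genes, 4 of 10 were higher, led by Cd163. Hmox1, which breaks down haem, had means of 12.5 and 15.9 against 3.88 and 5.14, and Tfrc, the transferrin receptor, 0.778 and 0.590 against 0.143 and 0.167. Growth factor genes were mixed, 5 higher and 1 lower of 13. Hbegf, an EGF receptor ligand, had means of 1.63 and 0.855 against 0.396 and 0.256, and Vegfa, the angiogenic factor, was the lower gene, with 0.0714 and 0.0241 against 0.714 and 0.705.

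CC chemokines were a further strong class, 6 higher and 1 lower of 10, with a median of 1.53. Ccl2 and Ccl7, which draw CCR2-bearing monocytes, had means of 95.8 and 40.3 against 25.9 and 10.6, and of 60.8 and 26.0 against 13.5 and 7.5. Ccl24, an eosinophil attractant, had 3.88 and 3.13 against 0.675 and 0.0641. Ccl5 was the lower gene, at 0.286 and 0.313 against 1.86 and 0.782. Ltc4s, the enzyme that makes leukotriene C4, had 2.87 and 4.43 against 0.156 and 0.397. Among the 14 highest genes by the naming rule were also Fxyd2, a regulator of the sodium pump (2.29 and 3.11 against 0.325 and 0.192), and Chp2, a calcineurin-like calcium-binding protein (1.04 and 1.25 against 0.0584 and 0.0641).

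Several monocyte, lipid-associated macrophage and matrix protease genes were lower. Of 11 measured monocyte genes, 0 were higher and 6 lower, with a median of -1.43. Ly6c2 was at 0 against means of 0.812 and 3.32 in the other C1q-positive cells, of which only 9.74% and 12.8% had it above 0. Ccr2 was above 0 in 9.52% and 6.02% of the Lyve1/Folr2-positive macrophages and in 39.0% and 25.6% of the others. Monocyte marker sums had medians of 9 and 12 against 19 and 11.5, so in the vehicle library the summed level was no lower. Of 15 lipid-associated macrophage genes, 1 was higher and 7 lower, with a list median of only -0.27. Spp1, osteopontin, had means of 0.119 and 0.241 against 3.08 and 1.5, and Lgals3, galectin-3, 7.84 and 4.51 against 28.5 and 25.9. Apoe, which carries lipid out of cells, went the other way, at 284 and 320 against 171 and 198.

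Among 15 matrix proteases and inhibitors, 2 were higher and 6 lower, with a list median of -0.39. Mmp12, macrophage elastase, was listed at 0 with GLPG0187 and averaged 0.0241 with vehicle, against 2.31 and 4.87 in the other C1q-positive cells. Mmp14, a membrane-bound collagenase, had 0.302 and 0.181 against 1.5 and 1.59. Timp2, an inhibitor of these enzymes, was higher, at 12.5 and 14.1 against 6.02 and 6.41, and so was Mmp9, a gelatinase that few cells carried (19.0% and 12%). The elastase and the collagenase were thus carried mainly by cells without Lyve1 and Folr2. Thbs1, thrombospondin-1, an activator of latent TGF-beta, had 0.913 and 0.217 against 3.97 and 4.23.

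**Figure D2:**
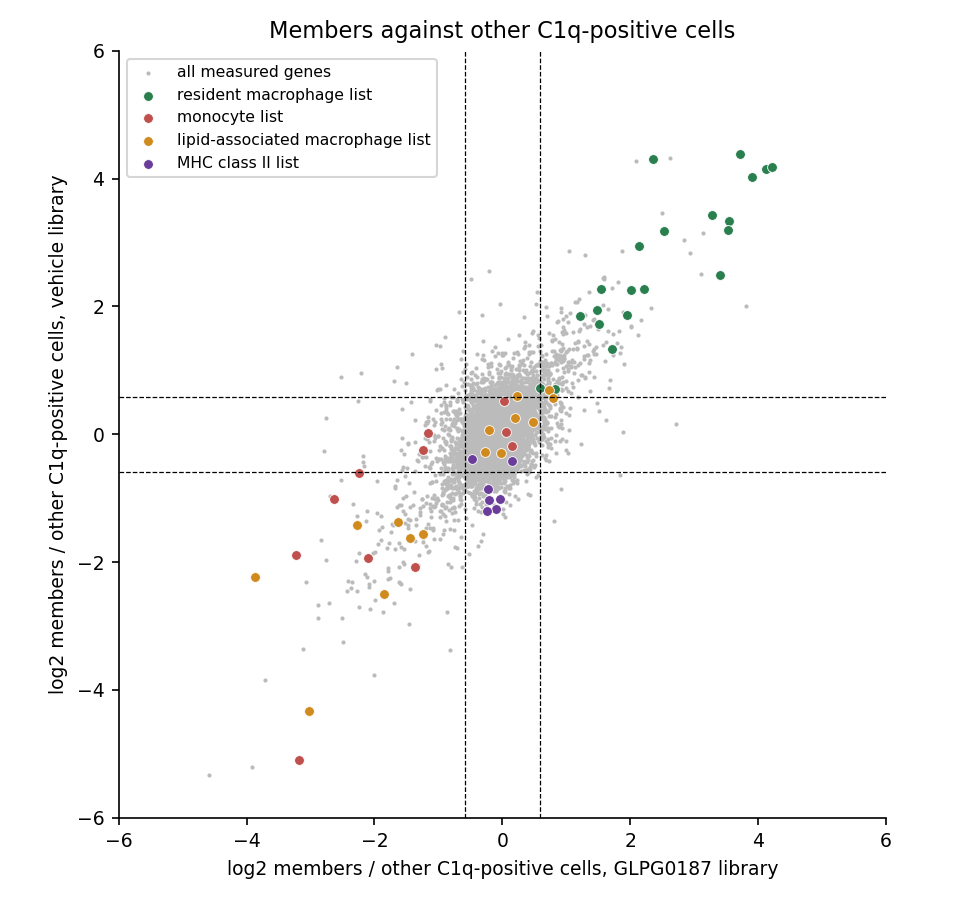
Log2 ratio of the mean deposited value in Lyve1/Folr2-positive macrophages ("members") to that in other C1q-positive cells, GLPG0187 library on the x axis and vehicle library on the y axis, for all measured genes (grey). Coloured points are genes of 4 lists, and dashed lines mark 1.5-fold. The resident list (green) lies in the upper right in full, the 7 MHC class II genes (purple) lie below 0 in the vehicle library, and the monocyte list (red) spreads to the lower left.

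For MHC class II genes the comparison came out differently in either library. In the GLPG0187 library H2-Aa had means of 128 in Lyve1/Folr2-positive macrophages and 131 in the other C1q-positive cells, a log2 ratio of -0.03. In the vehicle library the means were 46.6 and 94.4, a ratio of -1.02. Over the 7 measured class II genes the median ratio was -0.21 with GLPG0187 and -1.02 with vehicle, and 0 of 7 passed 1.5-fold in both. Integrin genes had 0 higher and 4 lower of 11. Itgax, the CD11c subunit, was above 0 in 0.794% of cells and in none of the 83 vehicle cells, against 31.8% and 42.3% of the others. Itgav, the alpha-v subunit that GLPG0187 targets, had means of 1.0 and 1.04 against 1.45 and 1.82. Of 11 TGF-beta pathway genes, 0 were higher and 5 lower, including the receptor Tgfbr1, with 0.762 and 1.01 against 2.10 and 2.69. Other genes among the 10 lowest by the naming rule were AA467197, Il7r, Gngt2, Ms4a4c and Zmynd15, of which Il7r, the interleukin-7 receptor chain, had means of 0.0159 and 0.0120 against 1.42 and 1.51.

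The Lyve1/Folr2-positive macrophages were not uniform. Both genes were above 0 in 94 of 126 cells (74.6%) with GLPG0187 and in 76 of 83 (91.6%) with vehicle, a difference of -17.0 percentage points (-26.8 to -5.98). Cells with Folr2 alone were 29 (23%) and 7 (8.43%), a difference of 14.6 points (3.80 to 24.3), and cells with Lyve1 alone were 3 and 0. The rule used both genes and each treatment is 1 library, so these shares are a description. With GLPG0187 several resident genes were lower in Folr2-only cells than in cells with both, with Timd4 at 0.172 against 2.19 and F13a1 at 9.86 against 32.1. Igf1, of the same list, went the other way, at 4.45 against 3.30. This split is made on Lyve1, so lower values of genes that vary with Lyve1 follow from the choice. Ccr2 averaged 1.31 in the Folr2-only cells against 0.383, and Ccl8 48.6 against 25.6. In the 7 Folr2-only vehicle cells Ccr2 averaged 1.0 against 0.276, but Ccl8 was lower, at 1.0 against 8.18.

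Timd4 divided the macrophages along the same line. Cells with Timd4 numbered 67 and 39. Lyve1 averaged 19.8 and 22.8 in them, and 6.95 and 9.27 in cells without Timd4. Ccr2 was at 0 in every cell with Timd4, and averaged 1.27 and 0.636 in those without. Ccr2 and Timd4 were thus found in no cell together, with 12 and 5 cells carrying Ccr2. Across cells of a library, which share its depth and its pool, Spearman's rho between Lyve1 and Timd4 was 0.554 (126 cells) and 0.542 (83 cells), and between Lyve1 and Folr2, which the rule used, 0.681 and 0.454.

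The treatment comparison within the Lyve1/Folr2-positive macrophages was led by antigen presentation, interferon-inducible and chemokine genes, which were higher with GLPG0187. Of 6026 genes with a mean of at least 0.2, 603 (10%) were apart by 1.5-fold or more, 265 (4.4%) in the higher and 338 (5.61%) in the lower direction, with a median log2 ratio of -0.03 over all genes. The direction was the same in Xist-only and Y-only cells for 248 (4.12%) of the genes as higher and 265 (4.4%) as lower. Those cells make up most of the cells behind the ratios, so this agreement is in large part built in. These counts rest on 1 library against 1 and on size alone. Higher values were found for all 7 measured MHC class II genes, 9 of 10 MHC class I genes, 9 of 9 immunity GTPases and 6 of 10 CC chemokines. All lists were chosen with earlier results of these data known, and the GTPase list was put together after values had been seen. The counts of all these lists are thus a description. Of the resident list, 1 of 23 was higher and 3 were lower.

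Promoters of class II and GTPase genes are shown because these groups differed most between the libraries and their known control elements differ. The lists were chosen with earlier results known, and the GTPase genes were grouped with their values already seen. The place of both groups is thus a description. Class II promoters carry an X box and a Y box, to which RFX, CREB and NF-Y factors bind before CIITA joins them. GTPase promoters carry gamma-activated sites (TTCNNNGAA) and interferon-stimulated response elements bound by IRF factors (GAAA, any 2 bases, GAAA). The sequences are the 150 bases before the RefSeq start on the GRCm38.p6 assembly, 5′ to 3′ on the gene's strand. Capitals mark the Y box core TGATTGG and the X2 box TGACGTCA in the H2 genes, and both interferon motifs in Gbp7 and Igtp. The H2-Aa bases are chr17:34287824-34287973 (minus strand), those of H2-Eb1 chr17:34305717-34305866 (plus), those of Gbp7 chr3:142530186-142530335 (plus) and those of Igtp chr11:58199406-58199555 (plus).
H2-Aa: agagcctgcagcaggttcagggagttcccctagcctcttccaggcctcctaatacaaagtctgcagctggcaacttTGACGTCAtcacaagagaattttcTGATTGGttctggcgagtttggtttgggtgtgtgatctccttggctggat
H2-Eb1: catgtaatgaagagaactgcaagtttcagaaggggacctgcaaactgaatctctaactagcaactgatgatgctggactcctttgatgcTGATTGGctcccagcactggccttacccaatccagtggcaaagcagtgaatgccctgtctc
Gbp7: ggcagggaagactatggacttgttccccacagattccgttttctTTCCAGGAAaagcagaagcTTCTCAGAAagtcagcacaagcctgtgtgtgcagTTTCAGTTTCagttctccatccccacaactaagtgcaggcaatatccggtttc
Igtp: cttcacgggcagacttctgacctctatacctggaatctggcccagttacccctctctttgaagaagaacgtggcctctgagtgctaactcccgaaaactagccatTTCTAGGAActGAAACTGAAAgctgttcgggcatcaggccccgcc
In H2-Aa the Y box core starts 50 bases and the X2 box 74 bases before the gene start, and in H2-Eb1 the Y box core starts 61 bases before it. In Gbp7 the gamma-activated sites start 106 and 87 bases and the response element 53 bases before the start, the latter on the other strand. In Igtp they start 45 and 34 bases before it. No capitalised motif overlaps another in these sequences.

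Over 250 bases before the start, on either strand, TGATTGG was found in 5 of the 6 class II list genes with an entry in the RefSeq promoter table (H2-Aa, H2-DMb1, H2-Eb1, H2-Oa and H2-Ob), in 5 of 9 class I genes and in 0 of 10 GTPase genes. It was found in 8.38% of the 27025 genes of the table. The X2 box TGACGTCA was found in 1 of the 6 class II genes (H2-Aa), beside 1.77% of all genes. TTCNNNGAA was found in 6 of 10 GTPase genes and 0 of 6 class II genes, beside 8.13% of all genes, and the response element in 9 of 10 GTPase genes and 5 of 10 interferon response genes, beside 3.46%. The table had no entry for H2-Ab1 or Lyve1. A match describes letters in a window and not the binding of a factor.

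MHC class II differed most evenly across the list. H2-Aa (chromosome 17, 34282744 to 34287823, minus strand) had means of 128 with GLPG0187 and 46.6 with vehicle, a log2 ratio of 1.46. H2-Ab1 had 119 and 41.5 (1.51), and H2-Eb1 108 and 38.8 (1.47). These genes encode the chains of the peptide-presenting molecules. H2-DMb1, a chain of the peptide-loading catalyst, had 7.43 and 2.65 (1.45), Cd74, the invariant chain, 278 and 116 (1.27), and Ciita, the coactivator itself, 0.643 and 0.241 (1.12). The list median was 1.45. Xist-only cells gave 1.45 and Y-only cells 1.59, so the difference was as large in either sex of the pools.

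Many cells of the vehicle library had almost no class II message. The summed value of H2-Aa, H2-Ab1, H2-Eb1 and Cd74 per cell had a median of 681.5 (quartiles 399 and 878.5, range 1 to 1541) with GLPG0187 and 56 (quartiles 4.5 and 441, range 0 to 1038) with vehicle. The ranges overlapped, and the vehicle cells spread over both ends. With a limit of 15, the 99th percentile of Myh11-high cells in the library where it was higher, 121 of 126 cells (96.0%) were above it with GLPG0187 and 51 of 83 (61.4%) with vehicle. The difference was 34.6 percentage points (22.9 to 46.2). Among cells with both Lyve1 and Folr2 the counts were 90 of 94 and 46 of 76, a difference of 35.2 points (22.5 to 47.5). In Xist-only cells the counts were 21 of 21 and 17 of 24, and in Y-only cells 76 of 80 and 24 of 45.

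**Figure D3:**
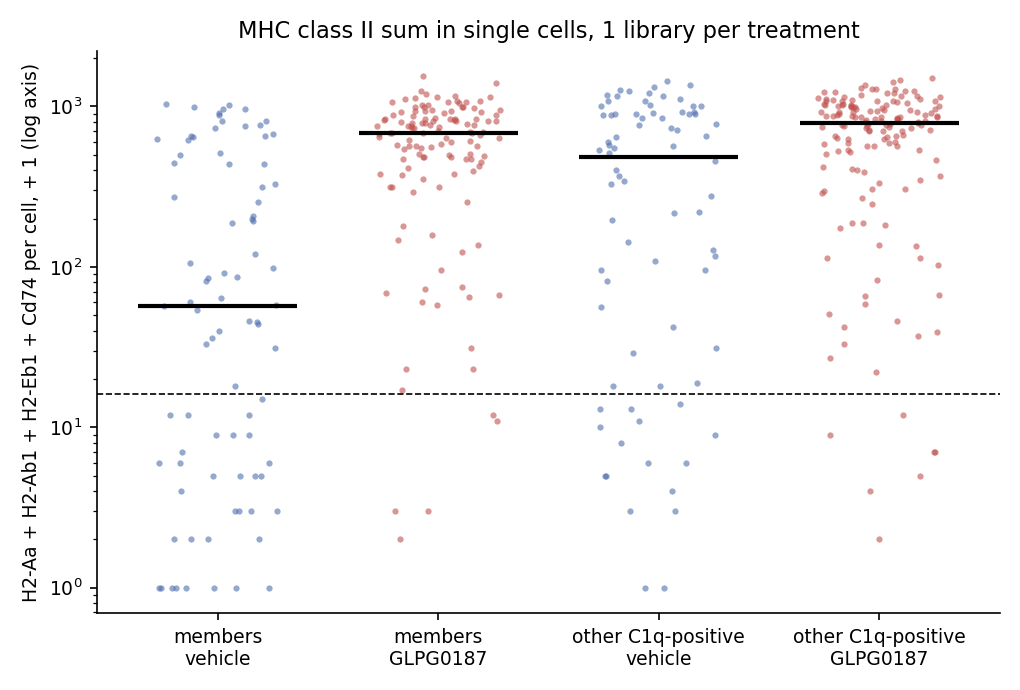
Summed deposited value of H2-Aa, H2-Ab1, H2-Eb1 and Cd74 plus 1 (log axis) in each cell, with a point per cell and a bar at the median. The first 2 columns are Lyve1/Folr2-positive macrophages ("members") of the vehicle and GLPG0187 libraries (medians 56 and 681.5), the last 2 the other C1q-positive cells (485 and 783). The dashed line is the limit of 15, below which 32 of the 83 vehicle cells of the first column and 5 of the 126 GLPG0187 cells of the second lie.

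Resident markers of the 32 vehicle cells at or below the limit did not all lie on the same side of those of the 51 above it. Lyve1 averaged 19.5 in them and 13.2 in the 51 class II high cells, Timd4 1.88 against 0.941, F13a1 30.0 against 21.2 and Vsig4 2.38 against 0.196. Cd163 was lower, at 4.38 against 7.78, and Ccl24 was level, at 3.19 and 3.10. Dcn, a fibroblast proteoglycan, averaged 18.0 against 6.82, and its part was not tested. Ccr2 was at 0 in all 32 and averaged 0.549 in the 51. The 5 vehicle cells with Ccr2 above 0 had a median class II sum of 814. With GLPG0187 the 12 cells with Ccr2 had a median of 806, and the 114 without it 676. With GLPG0187 only 5 cells lay at or below the limit. In Myh11-high cells H2-Aa was above 0 in 17.3% with GLPG0187 and 6.59% with vehicle, and the class II sum had medians of 1 and 0 and reached 201 and 41. The part of free message in the class II difference was not tested.

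In the other C1q-positive cells 6 of the 7 class II genes were nearer to each other between the libraries, the exception being Ciita (log2 ratio 1.21 there and 1.12 in the Lyve1/Folr2-positive macrophages). H2-Aa had means of 131 and 94.4 there, a log2 ratio of 0.47, and the list median was 0.52. The share above the limit was 147 of 154 (95.5%) and 62 of 78 (79.5%), a difference of 16.0 points (6.47 to 27.0). With 1 library per treatment, whether the difference between both kinds of cell exceeds that between animals was not tested.

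MHC class I genes followed, with 9 of 10 higher, 0 lower and a median of 0.99 (Xist-only cells 1.54, Y-only cells 1.02). The other C1q-positive cells had 6 of 10 higher, with a median of 0.80. In the Lyve1/Folr2-positive macrophages H2-K1, a classical heavy chain, had means of 33.5 and 18.1. The peptide transporter gene Tap1 had 1.52 and 0.518 (log2 ratio 1.39), and Psmb9, an immunoproteasome subunit, 2.79 and 0.988 (1.41). Tap1 and Psmb9 overlap at their starts on opposite strands. H2-Q7, a non-classical molecule, had 3.41 and 1.22 (1.42), though H2 genes are near-identical and their reads may be split uncertainly. Reads may also be split uncertainly among the more similar members of the Gbp, Irg, Ccl, Cd209 and Hspa1 families.

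Immunity GTPases were all higher with GLPG0187, 9 of 9, with a median of 1.24. This list was put together after values had been seen. The other C1q-positive cells also had 9 of 9 higher, with a median of 1.96 and a ratio of 3.83 for Iigp1. Iigp1 had the largest ratio of the genes that met the naming rule, with means of 3.17 and 0.193 (log2 ratio 3.48). It was above 0 in 61 of 126 cells, 48.4% (39.4 to 57.5), and in 7 of 83, 8.43% (3.46 to 16.6), a difference of 40.0 points (27.8 to 50.3). In Myh11-high cells it was above 0 in 10.4% and 6.10%. The interval of the vehicle share thus included the level of smooth muscle cells, and that of the GLPG0187 share lay above it. In the Xist-only vehicle cells, 24 in all, Iigp1 was listed at 0. Ifi47 had means of 1.32 and 0.337 (1.70), Gbp7 3.09 and 1.07 (1.44) and Igtp, which overlaps its neighbour Irgm2 on the same strand, 0.762 and 0.265 (1.24).

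Interferon response genes were higher in 8 of 14, lower in 0, with a median of 0.85. Rsad2, the antiviral enzyme viperin, had 1.17 and 0.349 (1.5), while Ifit3, an RNA-binding antiviral protein, had 0.619 and 0.518 (0.22). In the other C1q-positive cells Rsad2 had means of 8.68 and 0.436 and Ifit3 4.04 and 0.231, and that list had a median of 1.66. Of the receptors of the pathway, Ifngr1 had means of 2.42 and 2.51 and Ifnar1 0.825 and 1.28. Both ratios were within 1.5-fold, but that of Ifnar1, which was lower with GLPG0187, only because a constant is added to each mean. Fcgr4, an activating receptor for antibody, had 1.74 and 0.482 (1.66), and Ly6a, an interferon-inducible surface protein, 2.25 and 0.675 (1.60).

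Chemokines of the chromosome 11 cluster were higher with GLPG0187, 6 of 10 CC chemokines in all, with a median of 1.02. The other C1q-positive cells had 7 of 10 higher with a median of 1.13, and a ratio of 4.17 for Ccl8. Ccl8 (82115185 to 82116799, plus strand) had means of 30.3 and 7.58, a log2 ratio of 1.98. Its median per cell was 6 (quartiles 1 and 27.75, highest 302) with GLPG0187 and 0 (quartiles 0 and 2, highest 222) with vehicle. The share of cells with Ccl8 was 75.4% and 32.5%, a difference of 42.9 points (28.9 to 55.1), beside 2.46% and 1.15% of Myh11-high cells. Means of this gene rest on few cells with very high values, and Xist-only cells gave a ratio of 3.90 and Y-only cells 1.06. Ccl12 had 25.3 and 7.24 (1.79), Ccl2 95.8 and 40.3 (1.25), Ccl7 60.8 and 26.0 (1.22) and Ccl4 47.5 and 21.3 (1.15). Ccl9 was nearly level at 11.7 and 11.4.

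Resident identity genes were close between the libraries, with a median of -0.04 over 23, which include Lyve1 (-0.18) and Folr2 (0.02) of the rule. Mrc1 had 28.4 and 28.1, Cd163 6.19 and 6.47, F13a1 26.6 and 24.6, and Maf, a transcription factor of resident macrophages, 7.69 and 8.10. Clec10a, a galactose-binding lectin, was the 1 gene higher, at 2.75 and 1.55 (0.78). Ltc4s was lower, at 2.87 and 4.43 (-0.61), with Cd209f and Cd209g, which are above 0 in few cells and had opposite signs in Xist-only (-2.02 for Cd209f) and Y-only cells (2.01). Fcna (-1.59 and 1.09) and Ccl24 (-1.43 and 0.67), above 0 in more cells, also had opposite signs, in the same order. The inflammatory list had 5 higher of 14, beside 4.4% of all genes, and a median of 0.16. Il1b, at 19.9 and 17.8, and Tnf, at 8.82 and 7.0, were not among the 5. Over all cells, most resident marker levels were near each other, and class II, GTPase and chemokine levels were apart. The cells of both libraries were chosen by Lyve1 and Folr2, so closeness of genes that vary with these can follow from the choice.

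**Figure D4:**
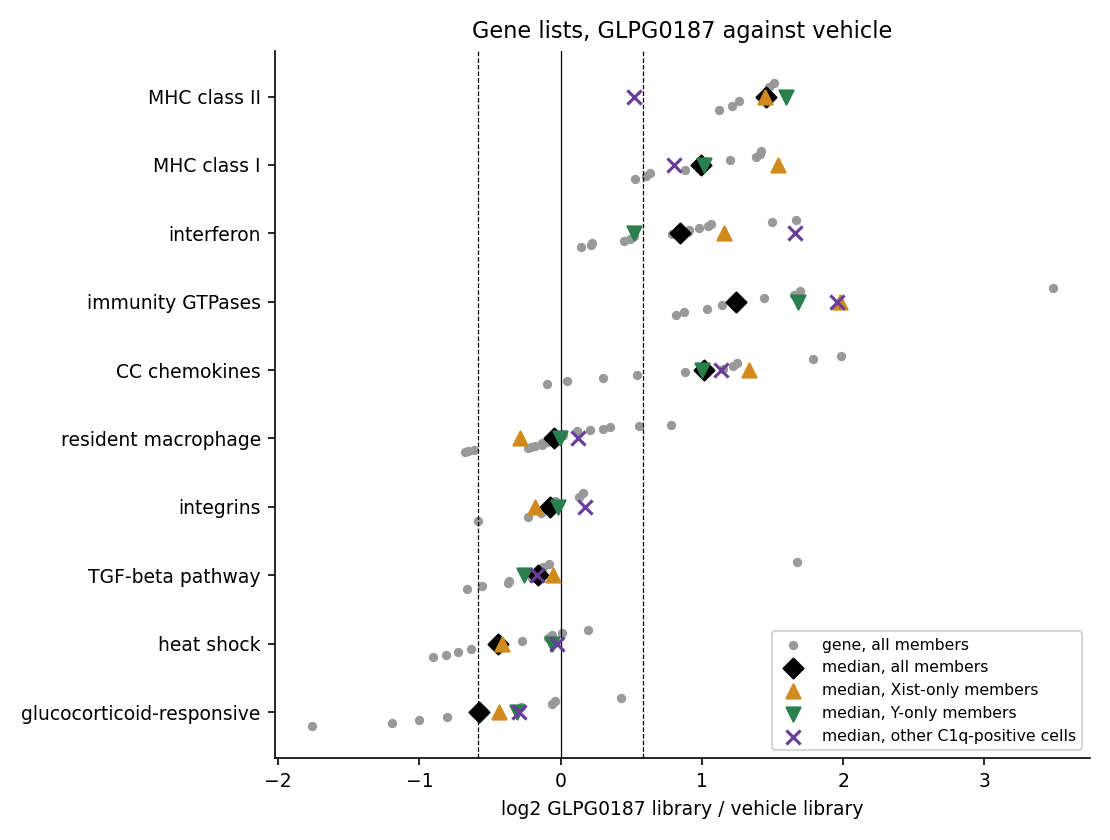
Log2 ratio of the GLPG0187 to the vehicle library for the genes of 10 lists in Lyve1/Folr2-positive macrophages ("members", grey points), with the list medians in all such cells, in Xist-only cells, in Y-only cells and in other C1q-positive cells. Dashed lines mark 1.5-fold. The class II points lie between 1.12 and 1.51, and the medians of the resident, integrin and TGF-beta lists are -0.04, -0.08 and -0.16 in all members.

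Of 8 measured integrin genes 0 were 1.5-fold apart, and the median was -0.08. Itgav had means of 1.0 and 1.04 (log2 ratio -0.05), and Itgb5, a partner of alpha-v, 1.17 and 1.81 (-0.58). Itgb5 lay just within the 1.5-fold limit only because 0.1 is added to each mean. Itgb5 was above 0 in 57.1% and 75.9% of cells, a difference of -18.8 points (-31.4 to -4.97). Itgb3, another partner, was above 0 in 1.59% and 1.20% of cells. Of 11 TGF-beta pathway genes, 1 was higher and 1 lower, with a median of -0.16. Tgfb1, the ligand that alpha-v integrins release from its latent form, had 2.68 and 3.01, and Tgfbi, a matrix protein induced by TGF-beta, 5.22 and 8.33 (-0.66). Thbs1 had 0.913 and 0.217 (1.68), carried by 16.7% and 9.64% of cells. Without 10 cells of high fibroblast marker sum, described with the fibroblast genes, its means were 0.344 and 0.117 (1.03).

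Glucocorticoid-responsive genes were lower in 5 of 10 and higher in 0, with a median of -0.58. Xist-only cells gave a median of -0.44, Y-only cells -0.31 and the other C1q-positive cells -0.29. Tsc22d3 (chromosome X, 140539528 to 140600659, minus strand), which encodes the glucocorticoid-induced leucine zipper, had means of 1.66 with GLPG0187 and 5.84 with vehicle (-1.76). It was above 0 in 54.8% and 79.5% of cells, a difference of -24.8 points (-36.9 to -11.2), and its quartiles were 0 and 2 against 1 and 8. Xist-only cells gave -1.93 and Y-only cells -1.56. Klf9, a transcription factor induced by the same hormone, had 0.936 and 2.27 (-1.19). Fkbp5, a chaperone that tempers the receptor, had 0.833 and 1.53 (-0.80), but 0.05 in Xist-only cells. In the other C1q-positive cells Tsc22d3 had 1.10 and 1.17, Klf9 0.623 and 0.474, and Fkbp5 0.448 and 1.42. Within the vehicle library, Tsc22d3 averaged 7.81 in the 32 class II low cells and 4.61 in the 51 others, and its rho with the class II sum was -0.319 (-0.125 with GLPG0187).

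Heat shock genes, which encode chaperones, had 0 higher and 4 lower of 11, with a median of -0.44. The median was -0.42 in Xist-only cells, but -0.06 in Y-only cells and -0.03 in the other C1q-positive cells. Hspa1a had means of 3.13 and 5.57, with a log2 ratio of -2.87 for Xist-only but 0.53 for Y-only cells. Among transcription factors, Klf2 had 1.54 and 3.04 (-0.94) and Klf4 4.08 and 7.17 (-0.80). Cx3cr1, the fractalkine receptor, had 0.444 and 1.30 (-1.36), Cytip, a regulator of cell adhesion, 0.341 and 1.02 (-1.35), Ctla2a, a cathepsin inhibitor, 0.611 and 1.70 (-1.34), and Arsb, a lysosomal sulfatase, 0.286 and 0.964 (-1.46). All 4 kept their direction in Xist-only and Y-only cells, as the naming rule required. Cycling genes had 3 higher of 5, and Mki67 was above 0 in 25.4% and 18.1% of cells, a difference of 7.32 points (-5.06 to 18.7). Top2a, a topoisomerase of dividing cells, was above 0 in 15.1% and 4.82%, a difference of 10.3 points (1.15 to 18.5), and in 18.2% and 7.69% of the other C1q-positive cells. The direction of this list was not the same in either sex.

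Fibroblast-type genes were among the lowest, and a few cells carried much of the difference. Serping1, a complement inhibitor, had means of 0.389 and 1.86 (-2.0), Fmo2, a monooxygenase, 0.492 and 1.73 (-1.63), and Col3a1, a fibrillar collagen chain, 0.762 and 2.14 (-1.38). The fibroblast marker list had 5 lower of 8 and a median of -1.0. Marker sums of 50 or more were found in 4 cells with GLPG0187 (205 to 451, the rest at most 45) and 6 with vehicle (169 to 470, the rest at most 28). These cells had a median of 4612 and 4632 genes, against 3116 and 2991 in the rest, and Scrublet called 1 and 1 of them doublets. Without them the ratios were -0.38 for Serping1, -0.09 for Fmo2, -0.37 for Col3a1, -0.46 for Cped1 and -0.41 for Aebp1, and the list median was -0.25. Xist-only cells, with no such cell in the vehicle library, had a list median of 0.29. Col14a1, another collagen, went from -1.92 to -1.23, and Ly6a from 1.60 to 2.41. H2-Aa (1.38), Iigp1 (3.56), Tsc22d3 (-1.84) and Klf9 (-1.13) stayed near their values with all cells. The class II list median was lower in the 58 and 50 cells (GLPG0187 and vehicle) of low Acta2, Col1a1 and Dcn, and is given with the processing alternatives.

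**Figure D5:**
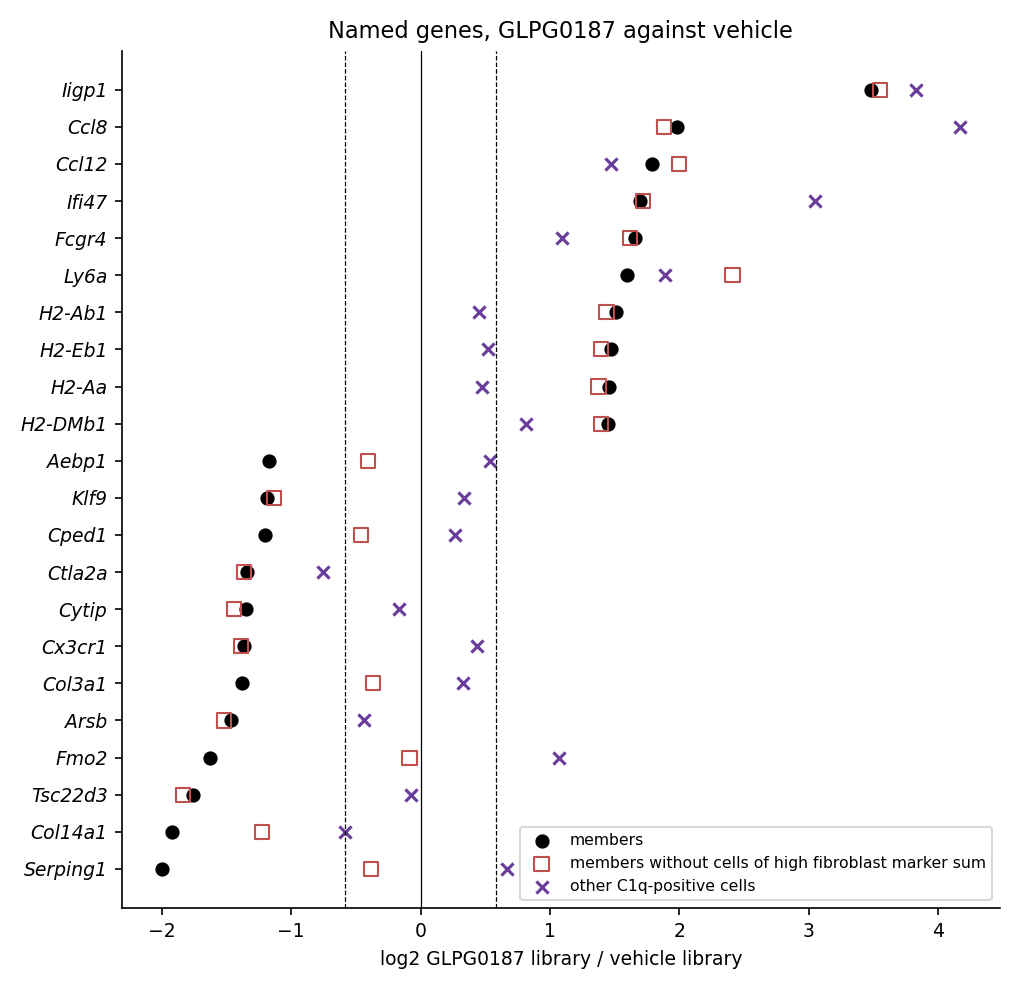
Log2 ratio of the GLPG0187 to the vehicle library for 10 of the 12 highest and the 12 lowest genes by the naming rule, in Lyve1/Folr2-positive macrophages (black points), in the same cells without those of high fibroblast marker sum (open squares) and in other C1q-positive cells (crosses). Dashed lines mark 1.5-fold. Squares move towards 0 for Serping1, Fmo2, Col3a1, Cped1 and Aebp1, whereas those of Iigp1, the class II genes, Tsc22d3 and Klf9 stay beside the points.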

How the data were processed

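Per the labels' protocols, aortas were digested, sorted to exclude debris and made into 10x Genomics droplet libraries. The submitters' processing notes name Cell Ranger, Seurat and mm10, without versions or roles. The deposited values are whole numbers on a depth-corrected scale and were treated as a score, since no source used here gives the authors' correction step. Raw counts were not used here, so no count model was fitted. The members and lists were chosen with earlier results of these data known.

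Means per cell were compared as log2 ratios with 0.1 added, over genes with a mean of at least 0.2, in Python 3.11.15 with numpy 2.4.6, scipy 1.17.1 and pandas 2.3.3. Intervals of a difference of shares combine the exact intervals of both shares by the square-and-add method. The ratio between treatments was checked on simulated independent cells with known differences. That simulation held no variation between animals or libraries, so it cannot speak to that variation. Xist, Tsix and Y-linked genes were left out of counts, and the 8 genes of the rule also out of the comparison with other C1q-positive cells. Doublets were called with Scrublet in scanpy 1.11.5 and kept (48 and 16 cells in all, 1 and 2 among the Lyve1/Folr2-positive macrophages). Gene positions are from GENCODE M21 (GRCm38) and promoters from RefSeq.

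Named against other C1q-positive cells were the 14 highest and 10 lowest genes with a mean over the groups of at least 0.5 and 1.5-fold apart in both libraries. Named between treatments were the 12 highest and 12 lowest with a mean of at least 0.5, above 0 in at least 25% of the cells of the higher library and with 1 direction in Xist-only and Y-only cells. Genes of the lists were named besides, and some genes that met these rules are not reported here. Alternatives covered the limits of the rule, doublets, sex, scaling, the added constant, the filter, genes detected, the comparison cells, stromal message and each library left out. Leaving out cells of high fibroblast marker sum was chosen after seeing the data.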

Additional observations from a re-analysis of the deposited data

Results flagged for a closer look

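In the treatment comparison, 4 results had opposite signs in 2 groups of cells, and none of these differences was tested, since each treatment is 1 library. The cycling list had a median log2 ratio of GLPG0187 to vehicle of 1.63 for Xist-only and -0.35 for Y-only Lyve1/Folr2-positive macrophages, over 21 and 24 cells in the first and 80 and 45 in the second. The fibroblast marker list had a median of -1.0 in Lyve1/Folr2-positive macrophages and 0.40 in other C1q-positive cells. Serping1 had -2.0 and 0.67, and Fmo2 -1.63 and 1.07, in the same order. Cells with a fibroblast marker sum of 50 or more were 4 and 6 of the first kind and 11 and 4 of the second (GLPG0187 and vehicle). Without them the ratio in Lyve1/Folr2-positive macrophages was -0.25 for the list, -0.38 for Serping1 and -0.09 for Fmo2.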

How the results depend on the processing

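No paired analysis was possible because each treatment is 1 library. Counts of genes higher and lower than in other C1q-positive cells, and higher and lower with GLPG0187, were in that order 274, 271, 265 and 338. They were 147, 144, 94 and 77 with 0.5 added to the means and 178, 171, 139 and 152 with a mean of at least 0.5. Other alternatives moved some of them by over 1.5 times. In Xist-only cells 561 genes were lower than in other C1q-positive cells, and 1102 were higher and 810 lower with GLPG0187; in Y-only cells the last 2 were 400 and 512. Without the filter they were 520 and 654, with genes detected held within 2646 to 3530 they were 478 and 592, and in the 58 and 50 cells of low Acta2, Col1a1 and Dcn 704 were higher. With 1 library left out, 391 to 773 genes were higher and 575 to 578 lower than in other C1q-positive cells: 773 and 575 without the GLPG0187 library, 391 and 578 without the vehicle library. These settings test fewer cells or other genes; beyond that the cause was not tested. Among Xist-only cells the shares were 1.83% of all cells with GLPG0187, and 56.8% and 63.2% of C1q-positive cells. Signs turned in Xist-only cells for the interferon list against other C1q-positive cells (0.0751), the cycling list there (0.681) and the fibroblast list between treatments (0.29), and in Y-only cells for the cycling list between treatments (-0.35). Of 112 list medians and named genes, all stayed within 0.32 (log2) of their values with doublets removed, with equal totals, with median-of-ratios scaling and with a C1q sum of at least 20. More moved elsewhere: 50 in Xist-only cells (3 reversed besides), 43 with 0.5 added, 35 with genes detected held, 25 in Y-only cells (1 reversed besides), 13, 3 and 2 with a Lyve1 and Folr2 sum of at least 1 or 4 and a C1q sum of at least 5, 11 without cells of high fibroblast marker sum, and 6 and 5 with no filter and a mean of at least 0.5. Of 56, 22 moved with low stromal message, 7 with both genes above 0, 5 and 4 with other comparison cells, and 23 and 22 without the GLPG0187 or vehicle library. The class II median was 1.01 in the cells of low stromal message and from 1.27 to 1.59 under the other alternatives. Shares rest on 126 and 83 cells, which limits their precision, and raw depth is unknown.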
